A study of Saccharomyces cerevisiae with 6 samples.

Results

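The cell surface adhesins of Saccharomyces cerevisiae were followed across a floating film and the settled cells under it, through every probe set that the platform annotation pairs with FLO11, FLO10, FLO1, FLO5, FLO9, FIG2, AGA1 or SAG1. These 8 genes, of the 5923 that the annotation names, hold 18 of the 9335 probe sets on the array, of which 15 are paired with 1 gene and 3 with several of FLO1, FLO5 and FLO9. FLO9 has no probe set of its own, so 7 genes can be read singly. The biofilm cells ("floaters") and the bottom layer cells ("sinkers") came from 1 strain, 3238-32, which the labels list as MATa with leu2∆1, lys2-801 and ura3-52, alleles that both groups carry. The labels describe 24 h of preculture at 30°C in YEPD, after which cells were diluted 10-fold into 100 ml of YNB medium with 4% ethanol, leucine, histidine and uracil. The beakers of 250 ml then stood still for 48 h at 27°C. The film was drawn off first and the settled cells after it, and each group has 3 arrays of total RNA. The labels speak of triplicate beakers without linking any of them to an array, and the p-values therefore reflect only the spread among these arrays, which may be technical. The comparison asks how the messages for adhesins differ between cells that float and cells that do not.

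Adhesins of yeast are long mannoproteins whose serine- and threonine-rich stalk is joined to the wall glucan through the remnant of a GPI anchor. Flo1, Flo5, Flo9 and Flo10 are flocculins that bind mannose on neighbouring cells, whereas Flo11 gives hydrophobic cell-cell and cell-surface adhesion and is known to be needed for flor films, invasive growth and mats. The other members serve mating: Sag1 is the agglutinin of α cells, Aga1 anchors the agglutinin of a cells, and Fig2 is a relative of Aga1 made on exposure to pheromone.

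The arrays of a group resembled each other closely, with correlations of log2 signals from 0.958 to 0.979 within groups and 0.801 to 0.845 between them. Bottom layer replicate 3 stood apart in background. Its brightest unspiked control probe set, one for a mouse or Bacillus gene taken as absent from the sample, read 44.8 signal units, against 16.3 to 21.9 on the other arrays. The 3′ to 5′ signal ratio of ACT1, a sign of RNA integrity, was 1.54, 2.04 and 1.56 in the biofilm, against 2.36, 1.80 and 3.84 in the bottom layer. The groups overlapped in this ratio (exact two-sided permutation test, p = 0.2, where 0.1 is the smallest possible). The same ratio for the control gene YER148W was higher, at 6.48, 11.9 and 12.9 in the biofilm, against 7.15, 4.52 and 8.69 in the bottom layer. Here too the groups overlapped, with the highest readings in the biofilm, and the difference was not tested.

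The mating type that the labels give went against the arrays. All 5 α-specific genes lay above the unspiked controls on all 6 arrays, with a summed signal of 9747 to 10963 in the biofilm, against 9964 to 10426 in the bottom layer. None of the 7 a-specific genes did so, and their summed signal was 91.5 to 120.8 in the biofilm, against 218 to 295 in the bottom layer. STE3, the receptor by which α cells sense a-factor, read 2210, 1797 and 1713 in the biofilm, against 1056, 1157 and 1150 in the bottom layer. STE2, the receptor of a cells, read 2.23, 3.89 and 0.862 in the biofilm, against 5.56, 3.58 and 9.88 in the bottom layer, below the unspiked controls on all 6 arrays. AGA2, the binding subunit of a-agglutinin, was above them on 2 biofilm arrays and 1 bottom layer array, at 19.9, 25.5 and 20.2 against 8.30, 19.2 and 36.2. The a-factor genes gave signal on some arrays. MFA1 read 13.9, 18.2 and 6.87 in the biofilm, against 116, 123 and 108 in the bottom layer (limma, adjusted p = 5.88e-05). The biofilm was above the unspiked controls on 1 array of 3, so the size of this difference is uncertain. MFA2 read 8.13, 7.82 and 64.2 in the biofilm, against 59.4, 113 and 19.1 in the bottom layer, with overlapping groups. The other 3 a-specific genes, STE6, BAR1 and ASG7, were too dim to be tested.

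The mating type locus, looked at after these values were seen, read likewise. The brighter probe set shared by MATALPHA1 and its silent copy HMLALPHA1 read 3685, 2620 and 5124 in the biofilm, against 5641, 3781 and 5795 in the bottom layer. This difference did not pass (limma, adjusted p = 0.19). The dimmer one averaged 540 ± 264 in the biofilm, against 1045 ± 239 in the bottom layer (SD, n = 3 each). It was called lower (limma, adjusted p = 0.0352), though the groups overlapped. The brighter probe set shared by HMRA2, MATALPHA2 and HMLALPHA2 was 2.10-fold lower in the biofilm, and the dimmer one 2.17-fold lower (limma, adjusted p = 0.00325 and 0.00187). The 3 probe sets for HMRA1, which carries the a1 sequence, reached at most 17.5 and exceeded the unspiked controls on 1 array in 1 of them. The strain is therefore called by its number here, and the groups by where they lay in the beaker. Markers of sporulating diploids were low: 7 of 10 were too dim to be tested, and the summed signal was 183 to 362 in the biofilm, against 491 to 557 in the bottom layer. Of the 3 tested, the meiotic activators IME1 and NDT80 were lower in the biofilm (limma, adjusted p = 0.00738 and 0.00947) and IME2 did not pass. LEU2, listed as leu2∆1, read 5441, 5712 and 4962 in the biofilm, against 8554, 7039 and 11805 in the bottom layer, and where its probes lie relative to that deletion is not given. URA3, listed as ura3-52, read 26.3, 32.1 and 32.5 in the biofilm, against 16.9, 15.1 and 16.8 in the bottom layer, near the unspiked controls. LYS2, listed as lys2-801, read 1044, 818 and 1391 in the biofilm, against 525, 324 and 637 in the bottom layer, and the labels name no lysine among the supplements.

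**Figure D1:**
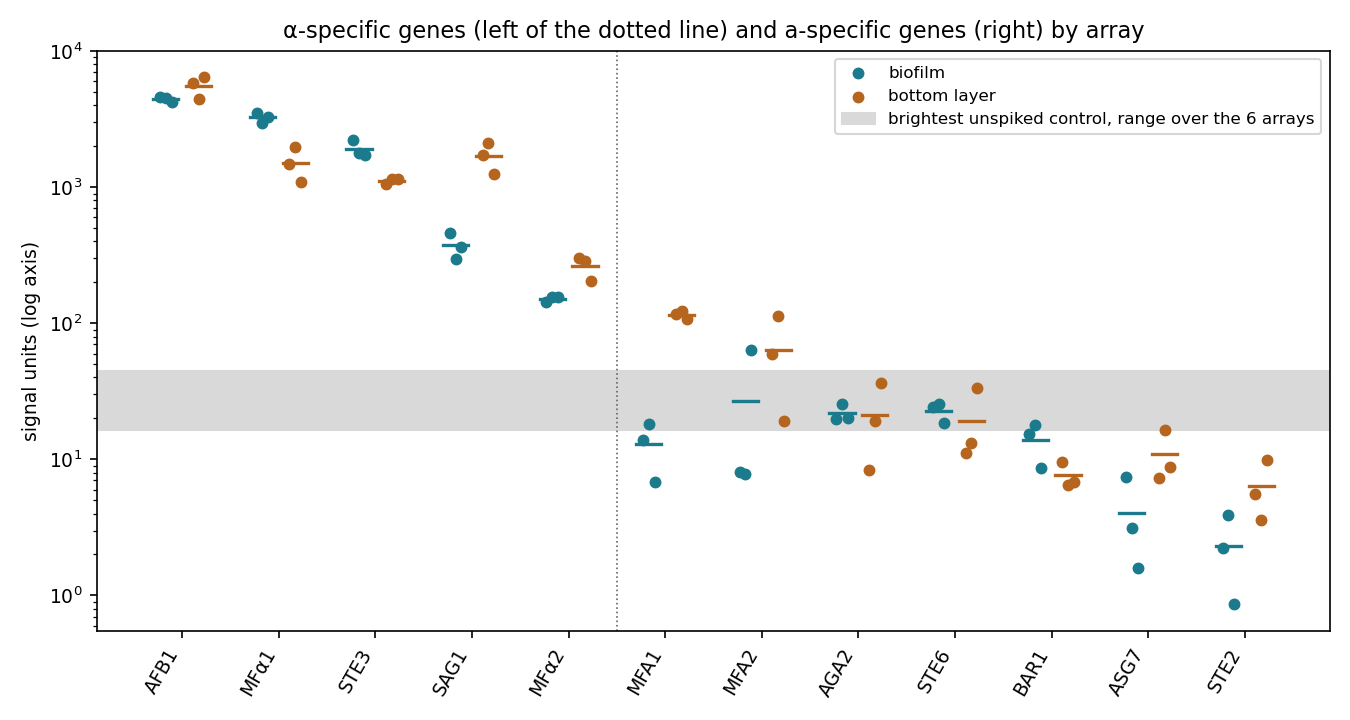
Signal of each α-specific gene (left of the dotted line) and a-specific gene (right), on a log axis in signal units, with 1 point per array, 3 biofilm and 3 bottom layer arrays per gene and a bar at the group mean. The α-specific genes lie above the grey band, the range of the brightest unspiked control over the 6 arrays. The a-specific genes lie mostly in or under it. Above it are MFA1 in the bottom layer, and MFA2 in biofilm replicate 3 and in bottom layer replicates 1 and 2.

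FLO11, the flor adhesin, gave a strong signal on all 6 arrays, and no difference between the groups passed the test. Its 1 probe set (4100_at) read 6483, 9571 and 7912 signal units in the biofilm, against 9335, 7419 and 14043 in the bottom layer. The groups overlapped, and the single highest reading was bottom layer replicate 3. The means were 7988 ± 1545 in the biofilm, against 10266 ± 3409 in the bottom layer (SD, n = 3 each), a log2 fold change of -0.33 (SE 0.25; limma, adjusted p = 0.297 over 6957 probe sets). The 95% interval of the fold, biofilm over bottom layer, ran from 0.536 to 1.18, and includes 1. Signals are linear and scaled per array, while folds and tests were taken on log2(signal + 16), which understates the folds of dim probe sets. Without bottom layer replicate 3 the log2 fold change was -0.08 (limma, adjusted p = 0.774), and under quantile normalization it was also -0.08 (limma, adjusted p = 0.546).

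The profile of FLO11 over the arrays resembled that of other genes with high signals. The 5 genes whose log2 signals over the 6 arrays were most like those of FLO11, among 5177 compared, were AGX1, ACT1, ADH2, TIP1 and SDH4, with Pearson correlations of 0.994, 0.993, 0.991, 0.987 and 0.985. AGX1 encodes an aminotransferase that makes glycine, ACT1 actin, ADH2 the alcohol dehydrogenase that oxidises ethanol, TIP1 a wall mannoprotein and SDH4 a subunit of succinate dehydrogenase. ACT1 read 7332, 10576 and 8904 in the biofilm, against 10132, 8527 and 17128 in the bottom layer, the same order of arrays as FLO11. Over the 100 other genes with the highest signals the median correlation with FLO11 was 0.751, against -0.228 over all genes compared. The points are the same 6 arrays each time and share their scaling, so these values are a description only. None of the 5 genes passed the test between groups.

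The other adhesin probe sets that passed the test were all lower in the biofilm. Of the 18 probe sets, 10 were bright enough to be tested, since the dimmest 25% of the array by mean signal were left out. Of these 10, 6 were called, where 55.3% of all probe sets tested were called in either direction. All 6 fell in the biofilm at an adjusted p below 0.05 (limma), none rose and 4 did not pass, where 26.3% of all probe sets tested fell and 29.0% rose. In the same 6 all 3 biofilm arrays lay below all 3 bottom layer arrays, which held for 29.5% of all probe sets tested. In such bulk samples, fewer cells making a message and less message per cell cannot be told apart. The 10 are not independent, because 3 belong to FLO10 and 3 are shared among FLO1, FLO5 and FLO9.

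**Figure D2:**
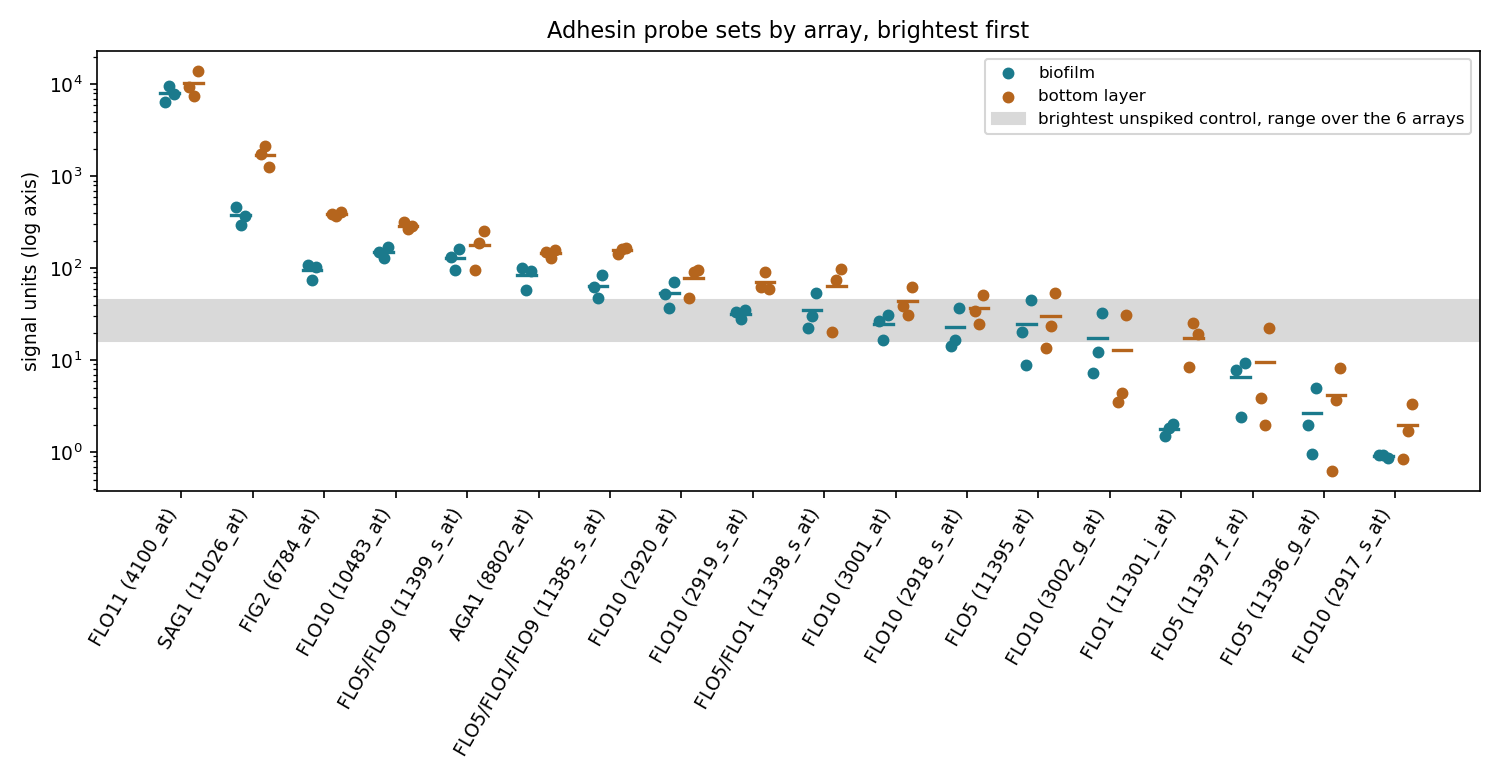
Signal of the 18 adhesin probe sets on each array, brightest first, on a log axis in signal units, with 1 point per array and a bar at the group mean. The groups overlap in FLO11, at the far left, SAG1 and FIG2 are separated by group, and the probe sets from FLO10 (3001_at) to the right lie mostly in or under the grey band, which spans the brightest unspiked control of the 6 arrays.

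FLO10, a flocculin that S. cerevisiae often keeps silent, was lower in the biofilm by its brightest probe set. That probe set (10483_at) read 149.97, 129 and 171 in the biofilm, against 322, 265 and 287 in the bottom layer. The groups did not overlap. The difference was 1.86-fold (log2 fold change -0.89, SE 0.17; limma, adjusted p = 0.00217). FLO10 has 6 more probe sets, all dimmer. The probe set 2919_s_at read 33.1, 27.8 and 35.4 in the biofilm against 62.2, 91.6 and 58.9 in the bottom layer (log2 fold change -0.84; limma, adjusted p = 0.0106), a call lost under quantile normalization (adjusted p = 0.0674). The probe set 2920_at overlapped between groups, at 52.4, 36.9 and 71.6 in the biofilm against 48.1, 92.1 and 96.9 in the bottom layer (log2 fold change -0.43; limma, adjusted p = 0.226). Leaving out bottom layer replicate 1 gave -0.70 (adjusted p = 0.0633) and leaving out biofilm replicate 2 gave -0.25.

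The remaining 4 probe sets of FLO10 were too dim to be tested. The brightest of them (3001_at) read 26.8, 16.7 and 31.4 in the biofilm, against 39.2, 31.2 and 61.8 in the bottom layer, above the unspiked controls on every array. The probe set 2918_s_at averaged 22.7 ± 12.7 in the biofilm, against 36.7 ± 13.4 in the bottom layer, and 3002_g_at averaged 17.4 ± 13.6 in the biofilm, against 13.1 ± 15.7 in the bottom layer (SD, n = 3 each). The last, 2917_s_at, was below the unspiked controls on all 6 arrays. Probe sets of this 1 gene thus ranged from separated groups to background.

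Of FLO1, FLO5 and FLO9, the flocculins named for flocculation in suspension, FLO1 and FLO5 gave little signal of their own. FLO9 has no probe set of its own and was read only through shared ones. The probe set for FLO1 alone (11301_i_at) read 1.501, 1.83 and 2.04 in the biofilm, against 8.37, 25.5 and 19.1 in the bottom layer. The groups did not overlap, but the biofilm was below the unspiked controls on all 3 arrays and the bottom layer above them on 1, so no fold is given. Of the 3 probe sets for FLO5 alone, the brightest (11395_at) read 20.1, 8.79 and 44.9 in the biofilm, against 13.5, 23.7 and 53.7 in the bottom layer, and 11397_f_at and 11396_g_at were below the unspiked controls on all 6 arrays.

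The 3 probe sets shared by these genes were all tested, and 1 of them was lower in the biofilm. The probe set shared by FLO5, FLO1 and FLO9 (11385_s_at) read 62.9, 48.0 and 83.8 in the biofilm, against 143, 161 and 168 in the bottom layer. The groups did not overlap, with a 2.17-fold lower signal in the biofilm (log2 fold change -1.12, SE 0.21; limma, adjusted p = 0.0018). Which of the 3 genes gave that signal cannot be told from it. The probe set shared by FLO5 and FLO9 (11399_s_at) read 134, 95.2 and 163 in the biofilm, against 96.9, 187 and 256 in the bottom layer, and that shared by FLO5 and FLO1 (11398_s_at) read 22.4, 30.3 and 53.4 in the biofilm, against 20.1, 73.9 and 97.8 in the bottom layer. In both the groups overlapped, with bottom layer replicate 1 among the low readings. Their log2 fold changes were -0.36 (limma, adjusted p = 0.374) and -0.53 (limma, adjusted p = 0.313). Without bottom layer replicate 1 the first was -0.71 (limma, adjusted p = 0.0591), and without bottom layer replicate 3 it was -0.07. Without bottom layer replicate 1 the second was -1.02 and passed (limma, adjusted p = 0.0261), and with array weights both were close to 0, at 0.03 and 0.04.

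**Figure D3:**
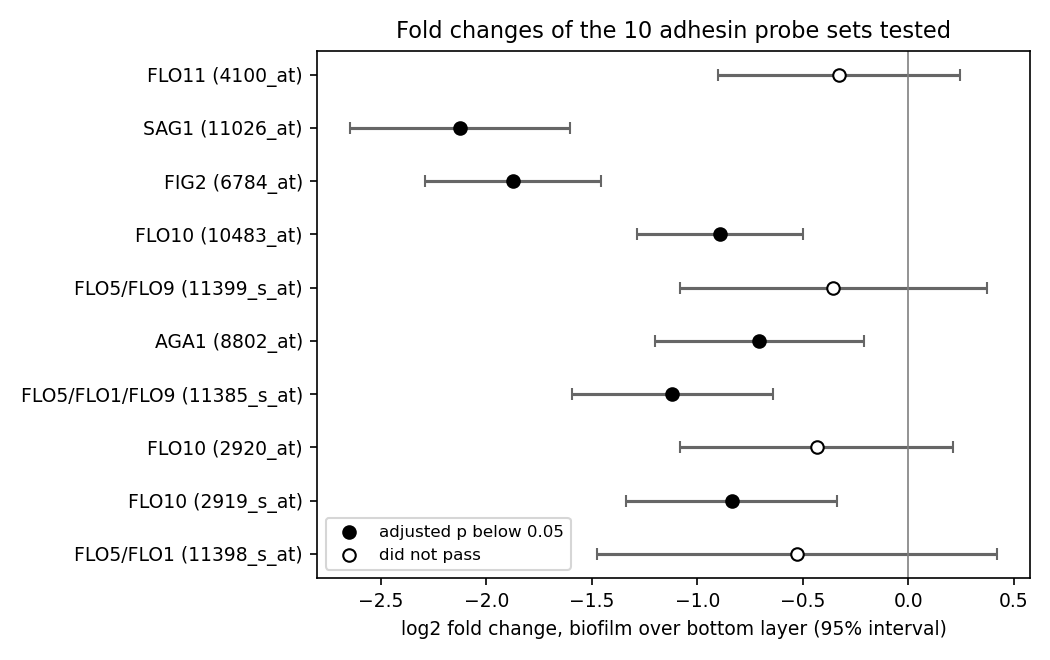
Log2 fold change, biofilm over bottom layer, of the 10 adhesin probe sets tested, with 95% intervals from the limma fit (3 arrays in each group). Filled points passed an adjusted p of 0.05 and open points did not. All 10 points lie left of 0, and the intervals of SAG1 and FIG2 lie farthest from it, while those of FLO11 and 3 others cross 0.

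SAG1 and FIG2 showed the largest differences of the 10 adhesin probe sets tested. SAG1, α-agglutinin, read 464, 297 and 366 in the biofilm, against 1734, 2121 and 1257 in the bottom layer. The groups were far apart, with a 4.36-fold lower signal in the biofilm (log2 fold change -2.12, SE 0.23; limma, adjusted p = 8.45e-05). FIG2 read 110, 73.8 and 103 in the biofilm, against 390, 369 and 410 in the bottom layer, 3.67-fold lower in the biofilm (log2 fold change -1.88, SE 0.18; limma, adjusted p = 5.26e-05). Under each of the 17 alternatives tried, SAG1 and FIG2 stayed lower and past the threshold.

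The 1 probe set for AGA1, AGA1 8802_at, differed less. It read 101, 58.7 and 94.4 in the biofilm, against 150.04, 128 and 159 in the bottom layer, 1.63-fold lower in the biofilm (log2 fold change -0.71, SE 0.22; limma, adjusted p = 0.0219). The groups did not overlap, yet the call did not hold when biofilm replicate 2 was left out (-0.50 on the log2 scale; adjusted p = 0.0853), bottom layer replicate 1 (adjusted p = 0.064) or bottom layer replicate 3 (adjusted p = 0.054). The partner subunit gene AGA2 was at the level of the unspiked controls, as given above.

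The 4 other α-specific genes did not all go the way of SAG1. MF(ALPHA)1, the main gene for α-factor, was 2.21-fold higher in the biofilm, at 3271 ± 281 against 1509 ± 438 in the bottom layer (SD, n = 3 each; limma, adjusted p = 0.00181). STE3 was 1.68-fold higher in the biofilm (limma, adjusted p = 0.00323). MF(ALPHA)2, the minor gene for α-factor, was 1.64-fold lower, at 152 ± 7.08 in the biofilm against 263 ± 52.3 in the bottom layer (SD, n = 3 each; limma, adjusted p = 0.0106). AFB1, which encodes a blocker of a-factor, averaged 4451 ± 198 in the biofilm, against 5585 ± 1037 in the bottom layer, and did not pass (limma, adjusted p = 0.169). Of the 5 genes, 2 thus rose and 2 fell, where 34.3% of all genes tested rose and 23.2% fell.

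Genes that pheromone is known to induce went both ways. The list of 23 such genes holds SAG1 but leaves out FIG2 and AGA1, which were both called lower above. Of the 23, 17 were tested, of which 6 fell in the biofilm, 3 rose and 8 did not pass. Of all genes tested by their brightest probe set, 23.2% fell and 34.3% rose. The median log2 fold change of the 17 was -0.09, against 0.15 over all genes tested. Beside SAG1, FUS1, a fusion protein of mating cells, was 2.74-fold lower in the biofilm, at 64.5 ± 4.16 against 205 ± 15.5 in the bottom layer (limma, adjusted p = 0.000123). PRM4 was 2.84-fold lower, at 774 ± 92.2 in the biofilm against 2247 ± 406 in the bottom layer, and PRM10 2.42-fold lower, at 279 ± 34.6 in the biofilm against 698 ± 85.3 in the bottom layer (SD, n = 3 each; limma, adjusted p = 0.000139 and 0.000237).

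In the pheromone pathway itself, 16 of 18 genes were tested, of which 4 rose, 4 fell and 8 did not pass, where 57.5% of all genes tested were called, 34.3% higher and 23.2% lower. The median log2 fold change, 0.15, was that of all genes. STE4, the Gβ subunit that carries the signal, was 2.90-fold higher in the biofilm, at 1348 ± 219 against 453 ± 64.3 in the bottom layer (limma, adjusted p = 0.000124). The kinase gene STE20 was 1.78-fold higher (limma, adjusted p = 0.00604). The kinase genes next in the chain were lower: STE11 by 2.05-fold, at 108 ± 15.6 in the biofilm against 238 ± 28.6 in the bottom layer, and STE7 by 2.29-fold, at 61.4 ± 6.56 in the biofilm against 166 ± 50.01 in the bottom layer (SD, n = 3 each; limma, adjusted p = 0.00122 and 0.00223). Without bottom layer replicate 1, 2 genes of the pathway rose, and 7 did so with array weights.

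Of 23 direct regulators and silencers of FLO genes, 20 were tested, and 8 fell, 4 rose and 8 did not pass, where 23.2% of all genes tested fell and 34.3% rose. The 8 became 4 with 1 probe set per gene or with the dimmest 50% left out, which test fewer of them. Their median log2 fold change was -0.36, against 0.15 over all genes tested. TEC1, an activator of FLO11, read 468, 509.5 and 403 in the biofilm, against 1189, 1268 and 1957 in the bottom layer, 3.06-fold lower in the biofilm (limma, adjusted p = 0.00023). MGA1, whose product resembles a heat shock factor and promotes filamentous growth, read 22.1, 13.9 and 19.2 in the biofilm, against 67.4, 78.8 and 114 in the bottom layer (limma, adjusted p = 0.000549). SFL1, a repressor of FLO11, read 16.99, 18.7 and 17.7 in the biofilm, against 44.3, 85.7 and 70.3 in the bottom layer (limma, adjusted p = 0.00215). In both genes the biofilm was above the unspiked controls on 1 array of 3, so their size is uncertain.

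HDA3, a subunit of the histone deacetylase that silences FLO11 in part of a population, was 2.33-fold higher in the biofilm, at 144 ± 33.5 against 52.1 ± 7.11 in the bottom layer (SD, n = 3 each; limma, adjusted p = 0.00108). The listed subunits HDA1 and HDA2 were too dim to be tested, and their groups overlapped. HDA1 averaged 28.3 in the biofilm against 30.6 in the bottom layer, and HDA2 33.6 against 35.3. FLO8, the activator that FLO11 and FLO1 are known to need, was named after its values were seen. Its brighter probe set read 16.3, 25.6 and 10.97 in the biofilm, against 5.02, 12.1 and 28.7 in the bottom layer, and was above the unspiked controls on 1 array of 6. FLO8 was therefore too dim to be compared.

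The messages for other wall proteins were mixed. Of 33 further GPI-anchored wall proteins 30 were tested, of which 9 rose, 7 fell and 14 did not pass (median log2 fold change -0.16), shares near the 34.3% of all genes tested that rose and the 23.2% that fell. The 4 with the smallest p were all lower in the biofilm: SPI1, a wall protein of stressed cells, by 48.7-fold, and the cold shock and anaerobic mannoproteins TIR4, TIR2 and TIR1 by 5.23-fold, 3.15-fold and 2.72-fold (limma, adjusted p from 1.74e-06 to 8.14e-05). Of 17 wall proteins without a GPI anchor and signalling mucins, 6 rose, 4 fell and 7 did not pass, again near those shares. Without biofilm replicate 3, bottom layer replicate 1 or bottom layer replicate 3, 3 rose, and without biofilm replicate 1, biofilm replicate 2 or bottom layer replicate 3, 2 fell. MSB2, the mucin that senses for the filamentous growth pathway, was 3.96-fold higher in the biofilm, at 1018 ± 113 against 246 ± 41.2 in the bottom layer. HKR1, a related sensor mucin, was 2.20-fold higher, at 426 ± 74.6 in the biofilm against 184 ± 15.3 in the bottom layer, and SUN4 of daughter cell separation was 1.74-fold higher. UTH1 was 2.68-fold lower, at 2953 ± 174 in the biofilm against 7927 ± 433 in the bottom layer (SD, n = 3 each; limma, adjusted p from 2.97e-05 to 0.00283 over these 4).

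Messages for enzymes of protein O-mannosylation, with those that supply its mannose donors, were mostly higher in the biofilm. Whether these enzymes act on the adhesins here was not tested. Of 18 genes of protein O-mannosylation, all tested, 12 rose, 1 fell and 5 did not pass, where 34.3% of all genes rose and 23.2% fell, and the median log2 fold change was 0.69, against 0.15 over all genes. KTR3, a mannosyltransferase, was 3.08-fold higher in the biofilm, at 2458 ± 239 against 791 ± 135 in the bottom layer. PMT2, which adds the first mannose, was 2.49-fold higher, at 4531 ± 652 in the biofilm against 1811 ± 274 in the bottom layer. PSA1, which makes the mannose donor GDP-mannose, was 2.06-fold and DPM1, which makes its lipid-linked form, 1.99-fold higher (limma, adjusted p from 7e-05 to 0.000411 over these 4). The exception was KTR1, at 1752 ± 131 in the biofilm against 2871 ± 389 in the bottom layer (log2 fold change -0.70; limma, adjusted p = 0.0053).

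Genes that make and attach the GPI anchor were less uniform. Of 29 genes 26 were tested, of which 7 rose, 5 fell and 14 did not pass (median log2 fold change 0.02), fewer called than the 57.5% over all genes tested. Without biofilm replicate 1, 3 fell. LAS21 and MCD4, which add phosphoethanolamine to the anchor, were 2.25-fold and 2.26-fold higher in the biofilm. LAS21 averaged 905 ± 154 in the biofilm, against 392 ± 63.7 in the bottom layer, and MCD4 918 ± 112 in the biofilm, against 408 ± 120.0 in the bottom layer. TED1, which removes part of that decoration, was 2.13-fold higher, and PBN1, of the first mannosylation step, was 1.73-fold lower, at 444 ± 45.2 in the biofilm against 778 ± 69.8 in the bottom layer (SD, n = 3 each; limma, adjusted p from 0.000725 to 0.0024 over these 4).

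**Figure D4:**
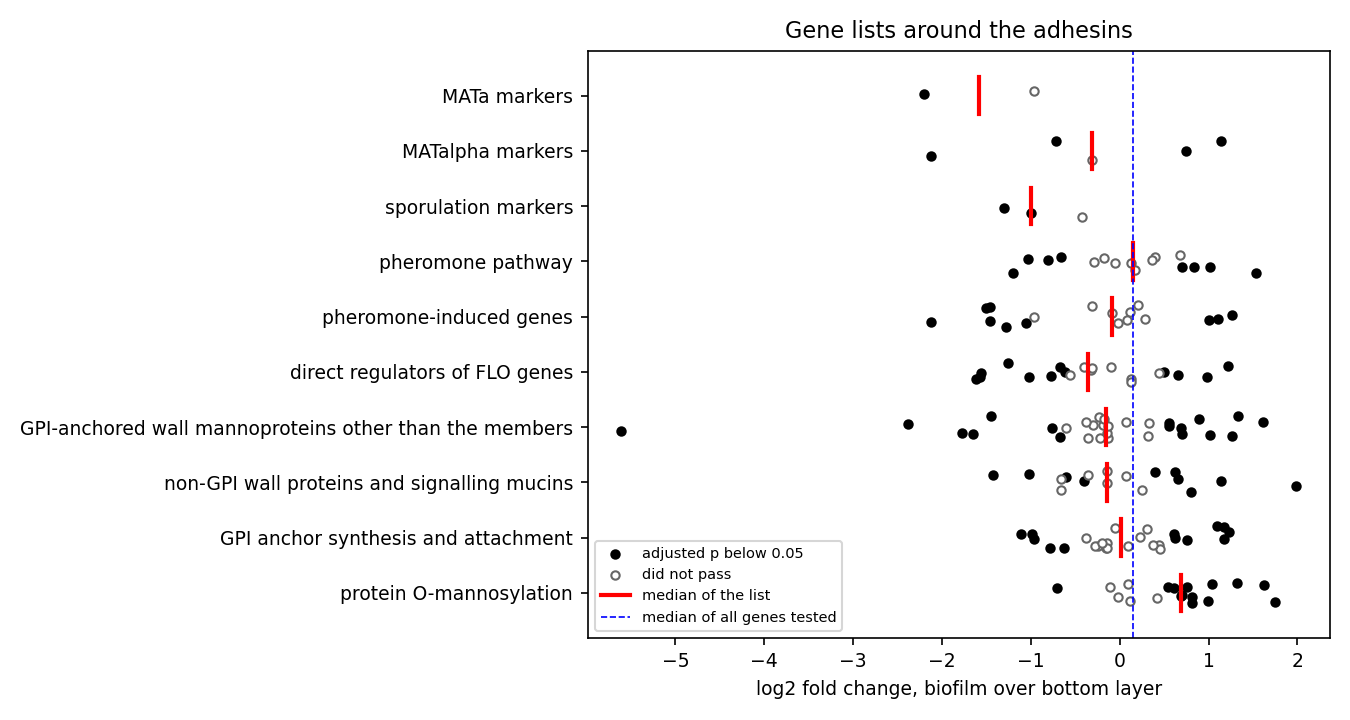
Log2 fold change, biofilm over bottom layer, of the tested genes of each list, 1 point per gene from its brightest probe set, with a red bar at the list's median and a dashed line at the median of all genes tested. Filled points passed an adjusted p of 0.05. The points of protein O-mannosylation lie mostly to the right of the dashed line, whereas the pheromone and wall protein lists spread to both sides, with SPI1 far to the left.

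The neighbours of the adhesin genes on their chromosomes included both higher and lower genes. Of the 48 places held by the 3 nearest protein-coding genes on each side, 33 had a tested probe set, of which 12 rose, 9 fell and 12 did not pass. This is 21 of 33 called, where 57.5% of all genes tested were called. Beside FLO11, YIR018C-A was 2.74-fold lower in the biofilm and YIR020C 1.90-fold lower, while MRS1 was 3.69-fold and MET28 1.63-fold higher. The call of YIR020C was lost without biofilm replicate 2 or 3 or bottom layer replicate 1 or 2. Next to FLO9, the butanediol dehydrogenase gene BDH1 read 575, 419 and 898 in the biofilm, against 8783, 7474 and 8455 in the bottom layer, 13.3-fold lower. Its tandem neighbour BDH2 was 14.2-fold lower, at 416 ± 182 in the biofilm against 5772 ± 669 in the bottom layer (SD, n = 3 each; limma, adjusted p = 1.19e-05), whereas GDH3, between BDH2 and FLO9, was 1.65-fold higher in the biofilm, and the small open reading frame YAL063C-A on the other side was 3.04-fold lower. YAL063C-A read 271 in bottom layer replicate 3, against 63.6 and 47.4 in the others of that group. Without that replicate its log2 fold change was -0.93 and its call was lost, as it was without biofilm replicate 2 or 3, and GDH3 lost its call without biofilm replicate 3.

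Of the FLO10 neighbours, SIR1, a silencing gene, was 2.03-fold lower in the biofilm and SKG1 1.84-fold higher. Beside FLO1, SWH1 was 1.70-fold lower, and beside FLO5, BAT1, a branched-chain aminotransferase, was 2.95-fold higher and YHR210C 1.37-fold lower, a call lost in 5 of the 6 fits that left out an array. Of the genes around FIG2, YCR087C-A was 5.83-fold higher, CSM1 2.98-fold higher, YCR090C 1.46-fold higher and KIN82 2.47-fold lower. The call of YCR090C was lost without biofilm replicate 2 or bottom layer replicate 3. Around AGA1, MRX15 was 4.75-fold, TRM112 2.39-fold and MVD1 1.69-fold higher, and none was lower, though MVD1 lost its call without biofilm replicate 3. Around SAG1, POL31 was 2.25-fold higher and the other 4 tested did not pass.

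**Figure D5:**
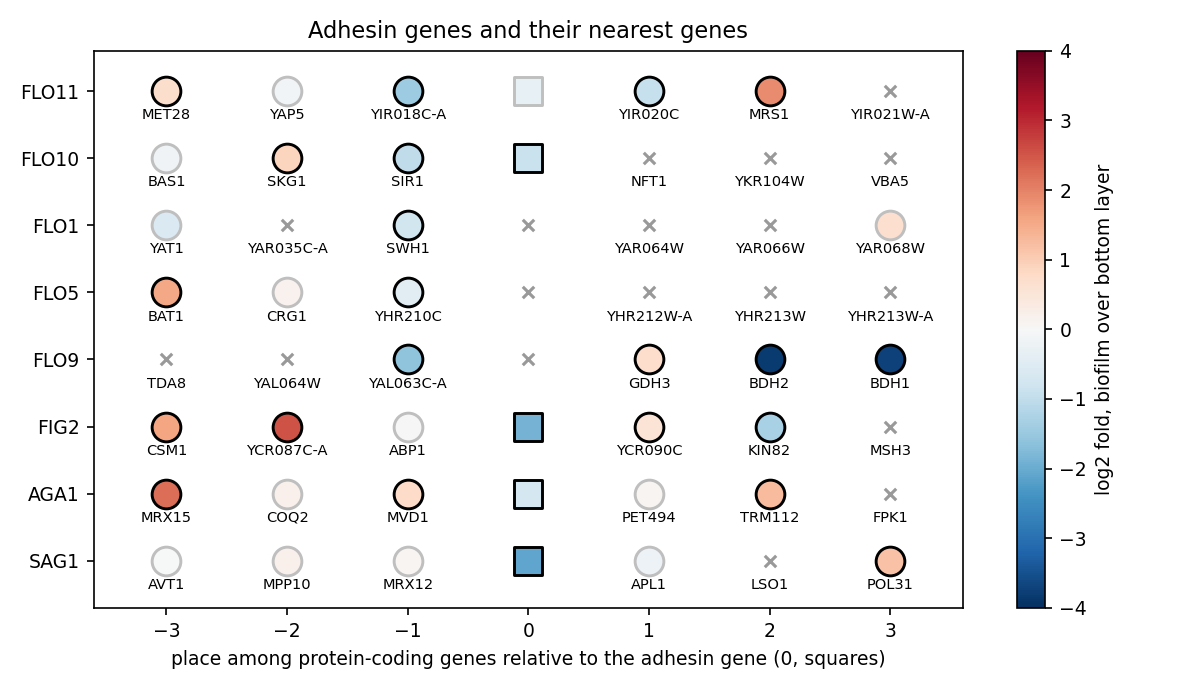
Log2 fold change, biofilm over bottom layer, as colour, of each adhesin gene (square, place 0, brightest probe set of its own) and of the 3 nearest protein-coding genes on each side (circles), in chromosome order. Black outlines mark an adjusted p below 0.05, grey outlines genes that did not pass, and crosses genes that were not tested. Blue and red circles stand side by side around most adhesin genes, and BDH2 and BDH1 near FLO9 are the darkest blue.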

How the data were processed

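Biotin-labelled amplified RNA was hybridised to Affymetrix yeast arrays, per the labels' protocols. The authors deposited 1 linear intensity for each probe set on each array. The submitters' processing notes name MAS5, without settings, and no detection calls were used here. Each array had a mean of about 500 signal units without its lowest and highest 2%, so it had been scaled.

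Probe sets were named through the platform table by gene identifier, with symbols from a gene table of assembly R64. Gene order on each chromosome was taken from the start coordinates of that table. Of 9335 probe sets 60 were controls, 6504 paired with 1 gene, 328 with several and 2443 were not listed. Of the 9275 others than controls, the dimmest 25% (2318) were left out. Values were taken as log2(signal + 16), which understates folds of dim probe sets, and fitted with limma 3.58.1 in R 4.3.3 (lmFit, eBayes with a trend, two-sided, Benjamini-Hochberg over 6957 probe sets, threshold 0.05), without a replicate block. Folds come from this fit, means ± SD from linear signals. A gene in a list is its brightest probe set. A probe set counts as above background where it exceeds the brightest of 19 unspiked controls on that array.

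Named were every adhesin probe set, up to 4 genes of each list by smallest p, all genes of lists with 8 or fewer members, called neighbours, and the 5 genes most like FLO11. FLO8, HDA1, HDA2, KTR1, the mating type locus and the genes of the listed alleles were added after their values were seen. The members and lists were chosen with earlier results of these data known. The fit was tested on simulated data of 6957 probe sets with 200 changed. It called 58.2% of 67 with a log2 change of 1, 89.4% of 66 with 2 and 2.99% of 67 with 0.5. On the 6 arrays themselves, 55.3% of the probe sets tested passed. The Benjamini-Hochberg cut-off is stricter where few probe sets change. These percentages therefore hold for the simulated setting and do not give the recovery between biofilm and bottom layer. The number of arrays limits the precision, with a median standard error of 0.21 on the log2 scale. Alternatives are given in the closing section. Figures were drawn with matplotlib 3.10.9.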

Additional observations from a re-analysis of the deposited data

How the results depend on the processing

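The calls of SAG1, FIG2, the brightest FLO10 probe set and the probe set shared by FLO5, FLO1 and FLO9 held under every alternative in which they were fitted, and FLO11 passed under none of 17, with log2 fold changes from -0.54 to -0.08. Without the dimmest 50% of probe sets, which tests fewer of them, 3 adhesin probe sets were lower, and 1209 probe sets of the array in place of 1828. With 1 probe set per gene, which also tests fewer, 1059 were lower. In the main fit 1203 of 5178 genes were lower by their brightest probe set. The call of the second FLO10 probe set was lost under quantile normalization (log2 fold change -0.53, limma adjusted p = 0.0674); the cause was not tested. Leaving out each array in turn gave AGA1 from -0.83 to -0.50, with 3 of the 6 calls lost, and the probe set shared by FLO5 and FLO1 from -1.02 to -0.19, called once. The adhesin probe sets called lower numbered 5 to 6 over these 6 fits. The replicate number as a block left 6 adhesin probe sets lower, and changed no call of an adhesin. Same-numbered arrays deviated together with correlations of 0.07, -0.03 and 0.14, so the numbers were not taken as pairs. Among the other named genes, the calls of YHR210C, YIR020C, YAL063C-A, YCR090C, GDH3 and MVD1, near the threshold, were lost under 1 to 9 alternatives, and those of AFB1, IME2 and MFA2 were gained under 1 or 2. Counts in the gene lists moved by over 1.5 times in 24 cases, mostly with the dimmest 50% left out, with 1 probe set per gene or without 1 array. Signals near the unspiked controls limit what can be said of FLO1, FLO5 and the dim FLO10 probe sets, and FLO9 was read only through shared probe sets.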
